A study of Rattus norvegicus with 12 samples.

Results

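Immediate early genes were followed in control rats and at 3 stages of chemically induced liver cancer: Fos, Fosb, Jun, Atf3, Egr1, Klf6, Myc, Ier2, Dusp1 and Zfp36. The members were chosen by name, as every probe set that the platform annotation gives to exactly 1 of these 10 symbols. They comprised 16 of the 31042 probe sets on the arrays that are not array controls, and 10 of the 14217 genes named by such probe sets. All 12 samples were RNA of male adult Sprague-Dawley rats, 3 arrays per group, and the labels put 12 rats at each time of sacrifice. Control rats had injections of distilled water. The hepatitis, cirrhosis and hepatocellular carcinoma (HCC) groups had diethylnitrosamine (DEN), an alkylating carcinogen activated in hepatocytes, at 70 mg/kg into the peritoneum weekly for 10 weeks, and were killed at the end of week 5, weeks 13 to 14 and weeks 23 to 24 after DEN treatment. The labels do not say whether these weeks run from the first or the last injection, nor when the controls were killed. All groups received a semipurified diet and were killed under pentobarbital. The label names liver as the tissue of all 12 samples, while the design text speaks of HCC tissue for the last group. The sources used here do not give the hour of death, the interval since the last injection or the delay before freezing.

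Immediate early genes are transcribed within minutes of a stimulus, from factors already present in the cell, and their transcripts are short-lived. Growth factors, cytokines, stress and tissue handling all induce them, mostly through mitogen-activated protein (MAP) kinases that act on serum response factor and on CREB and ATF proteins at their promoters. Fos and Jun proteins pair as the transcription factor AP-1, while Dusp1 and Zfp36 feed back on the signal by dephosphorylating MAP kinases and by marking cytokine transcripts for decay. In liver the class is known for its rapid induction after partial hepatectomy.

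Each array gives 1 linear intensity per probe set, as the authors deposited it, and tests were run on log2(intensity + 16), a scale that understates changes of dim probe sets. Errors beside a log2 difference are standard errors of the limma fit over all 12 arrays, adjusted p-values are over all 31042 probe sets, and a gene was called at an adjusted p under 0.05. Where a gene had several probe sets, the one with the highest mean stands for it. Median intensity per array lay between 28.69 and 30.94, and detection calls were not used here. The labels do not say that the 3 arrays of a group are separate rats, so p-values measure only the scatter of these samples.

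Arrays of the HCC group had the widest scatter, which enters the error of every comparison. The median SD within a group, over the 10 members, was 0.36, 0.26, 0.28 and 0.40 for control, hepatitis, cirrhosis and HCC (log2, n = 3), against 0.09, 0.10, 0.07 and 0.21 over all genes. Members and all genes were not matched for intensity here, and this scale also narrows the scatter of dim probe sets. The 3' minus 5' difference of the Gapdh control probe sets, a sign of RNA integrity, was 2.34 ± 0.93 in HCC and 0.94 ± 0.08, 0.53 ± 0.16 and 0.49 ± 0.07 in control, hepatitis and cirrhosis (log2, SD, n = 3). The hepatocyte markers were bright on all arrays, as the liver label has it, and the summed intensity of the 6 was 46324 to 46960 in control, 48198 to 50071 in hepatitis, 45744 to 46438 in cirrhosis, and 36742, 48915 and 35097 on HCC replicates 1, 2 and 3. The sum of 5 endothelial markers lay at 2110 to 2477 for control, 1481 to 2429 for hepatitis, 1743 to 1964 for cirrhosis and 428 to 1087 for HCC. For 6 macrophage markers it was 3634, 3320 and 6080 on control replicates 1, 2 and 3, 5274 to 6654 in hepatitis, 5209 to 5523 in cirrhosis and 2985 to 5875 in HCC. The 3 neutrophil markers summed to 137 to 218 for control, 715 to 1221 for hepatitis, 327 to 884 for cirrhosis and 220 to 471 for HCC, and 4 erythroid markers to 4259 to 6403, 996 to 2965, 871 to 1844 and 436 to 542. For 5 cholangiocyte markers the sum was 244 to 268 for control, 341 to 1019 for hepatitis, 601 to 691.9 for cirrhosis and 5534, 370.5 and 1090.3 on HCC replicates 1, 2 and 3. The 6 stellate cell and myofibroblast markers summed to 1736 to 2148, 1478 to 2686, 1636 to 1941 and 1950.4 to 2740.5 for the 4 groups in that order, 6 T and NK cell markers to 148 to 304, 152 to 277, 212 to 248 and 182 to 485, and 4 B and plasma cell markers to 106 to 257, 371 to 674, 655 to 724 and 392 to 499. The sum of 4 skeletal muscle markers was 1544 on control replicate 2 and between 28.8 and 54.2 on the other 11 arrays. Linear sums weigh the brightest markers most, and some markers, Csf3r of the neutrophil list among them, read under 16 on all arrays of a group. In a bulk tissue, fewer cells of a type and less RNA per cell cannot be told apart. The part of cell composition and of RNA integrity in the results was not tested.

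The 10 genes did not move as a block. Ier2, Zfp36 and Fosb fell at the hepatitis stage, and Ier2 and Fosb were also lower at cirrhosis. Klf6, Myc and Atf3 rose in HCC, where Dusp1 and Fosb were lower than in control. Ier2 in HCC lay above both earlier stages and was not called against control, and Fos and Jun passed no test. In the moderated F test across stages 8 of the 10 genes were called, all except Fos and Jun, against 39.3% of all genes.

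**Figure D1:**
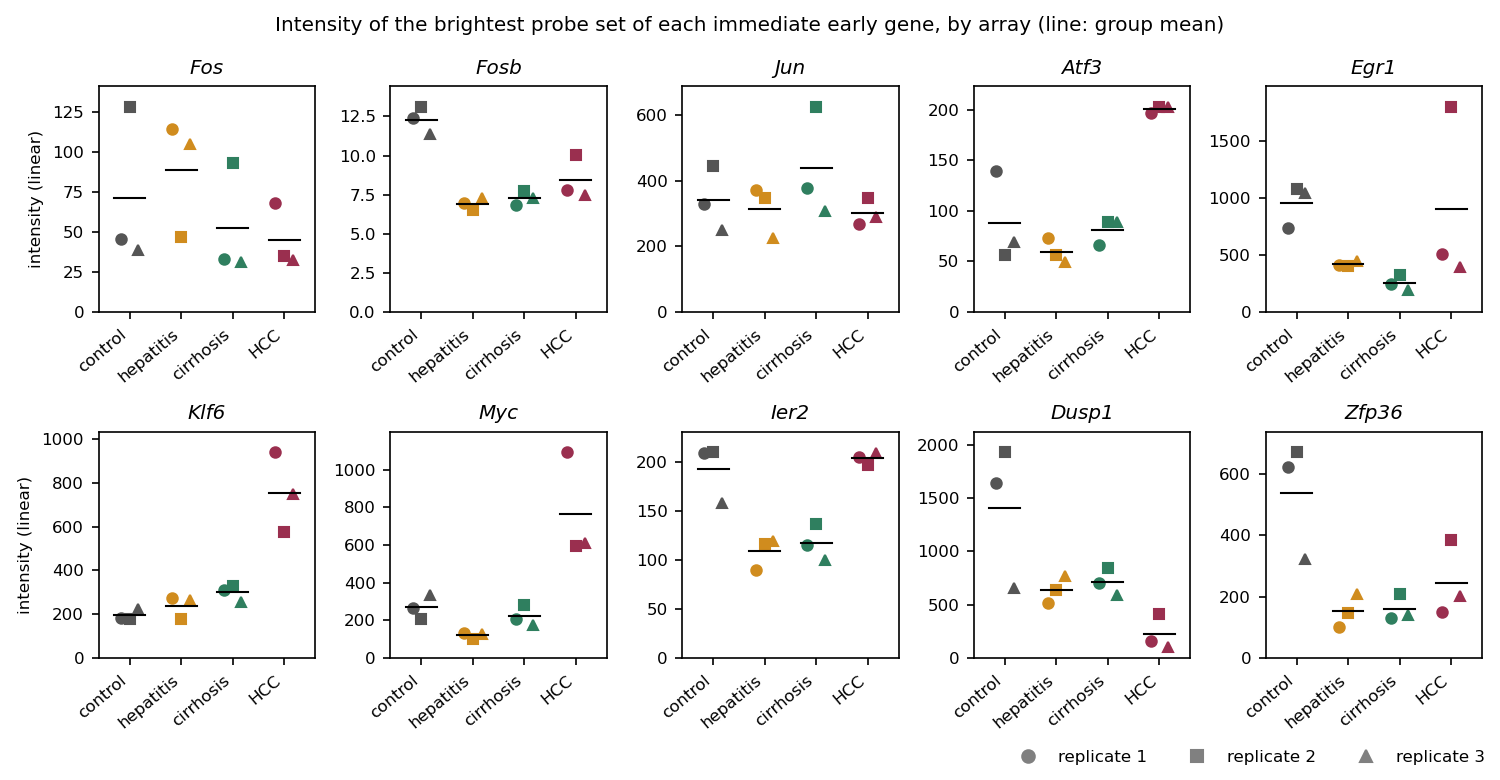
Linear intensity of the brightest probe set of each of the 10 genes (vertical axes, each from 0) on the 3 arrays of control, hepatitis, cirrhosis and HCC (horizontal axis); symbols mark replicates and lines the group means. Klf6, Myc and Atf3 have all 3 HCC arrays above the other 9, Dusp1 has them below the other 9, and Fos and Jun overlap in all groups.

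The AP-1 subunits and their relatives are basic leucine zipper proteins that bind DNA as pairs. Fos, which pairs with Jun proteins, had intensities of 45.6, 128 and 38.8 on control replicates 1, 2 and 3, 114, 47.0 and 105 in hepatitis, 32.8, 92.7 and 31.0 in cirrhosis, and 68.2, 34.7 and 32.4 in HCC. Each group held 1 or 2 bright arrays, and all groups overlapped. The difference was 0.34 ± 0.47 in hepatitis, -0.32 ± 0.47 in cirrhosis and -0.41 ± 0.47 in HCC against control (log2, n = 3 per group), and none passed the test (limma adjusted p = 0.846, 0.857 and 0.569). The SE was larger than each of these differences.

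Jun, the main partner of Fos, read 331, 446 and 250.4 in control, 372, 346 and 227 in hepatitis, 379.8, 627 and 309 in cirrhosis and 267, 348 and 291 in HCC. Every group overlapped every other, and cirrhosis replicate 2 was the brightest array. The differences from control were -0.11 ± 0.29, 0.32 ± 0.29 and -0.14 ± 0.29 (limma adjusted p = 0.938, 0.699 and 0.76).

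Fosb, a second partner of Jun, was at the dim end of the arrays, with 12.4, 13.1 and 11.4 in control, 6.96, 6.55 and 7.28 in hepatitis, 6.81, 7.76 and 7.28 in cirrhosis and 7.79, 10.1 and 7.46 in HCC. All 9 arrays of DEN-treated rats lay under the 3 controls. Only 9.44% to 30.2% of an array's probe sets were dimmer. The gene was called lower at each stage, by small amounts on this scale: -0.30 ± 0.05 in hepatitis, -0.28 ± 0.05 in cirrhosis and -0.21 ± 0.05 in HCC (limma adjusted p = 0.0112, 0.017 and 0.00804). With 1 in place of 16 added before log2 the differences were -0.75, -0.68 and -0.50, and with 64 added -0.11, -0.10 and -0.08, all called. The hepatitis call ended without control replicate 1 or 2 (0.0512 and 0.0565). The cirrhosis call ended without control replicate 1 or 2 or any 1 of the cirrhosis arrays (0.0609 to 0.0724), and the HCC call with only the arrays of HCC and control (0.0737).

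Atf3, a stress-induced zipper protein that can repress as a homodimer, had 139, 56.1 and 69.7 in control, 73.5, 56.5 and 49.5 in hepatitis, 66.6, 89.5 and 88.6 in cirrhosis and 197, 203 and 203 in HCC. The 3 HCC arrays were nearly equal, and each lay above all other arrays. Atf3 rose in HCC by 1.14 ± 0.25 against control, by 1.16 ± 0.25 against cirrhosis and by 1.53 ± 0.25 against hepatitis (log2; limma adjusted p = 0.00714, 0.00575 and 0.0016). These calls held with any 1 array left out. With array weights the differences of HCC from control and from cirrhosis missed the threshold (0.0543 and 0.0542), as did that from control with only the arrays of those groups (0.0541). Control replicate 1 was the brightest array outside HCC, and without it the cirrhosis difference from control turned from -0.02 to 0.30, neither past the test.

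Egr1 and Klf6 are zinc finger transcription factors, and Myc is a helix-loop-helix factor that drives ribosome production and growth. Egr1 read 735, 1086 and 1050.0 in control, 409.6, 408 and 453 in hepatitis, 249, 329.6 and 197 in cirrhosis and 514, 1807 and 399 in HCC. All hepatitis and cirrhosis arrays lay under all controls, and the HCC arrays spread from below the controls to above them. The hepatitis and cirrhosis differences were -1.13 ± 0.46 and -1.83 ± 0.46, neither past the threshold (limma adjusted p = 0.266 and 0.064). HCC differed from control by -0.38 ± 0.46 (adjusted p = 0.597) and was higher than cirrhosis by 1.45 ± 0.46 (adjusted p = 0.0372).

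HCC replicate 2, with the highest Egr1 signal of all 12 arrays, moved several calls. Without it the HCC difference from control was -1.03 and was called (limma adjusted p = 0.00641), and the differences of hepatitis and cirrhosis were also called (0.0166 and 0.00365), since the fit takes 1 spread from all groups. Without HCC replicate 3 the cirrhosis difference was called (0.0356), and the HCC difference from control was 0.03. The cirrhosis difference was also called with 1 in place of 16 added before log2 (0.0385), with the dimmest 30% of probe sets left out (0.04), with only the arrays compared (0.0041) and with array weights (0.00208), and the hepatitis difference with the last 2 of these (0.0306 and 0.0303). The call of HCC above cirrhosis held with 4 of the 12 arrays left out singly, among them HCC replicate 2, without which the difference was 0.80 in place of 1.45. It ended without control replicate 2 or 3 or any 1 hepatitis or cirrhosis array (0.051 to 0.117), with only the arrays of both groups (0.145) and with 64 in place of 16 added before log2 (0.0515).

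Klf6, a Krüppel-like transcription factor, had 183, 179 and 222 in control, 272, 179 and 267 in hepatitis, 312, 329.7 and 258 in cirrhosis and 939.8, 574 and 752 in HCC. On this probe set the order of the group means was control, hepatitis, cirrhosis and HCC, and the HCC arrays stood clear of the other 9. On the dimmest Klf6 probe set hepatitis lay above cirrhosis, at mean intensities of 66.9 and 54.0. Klf6 was higher in HCC than in control by 1.85 ± 0.20 (3.61-fold; limma adjusted p = 0.000218), than in cirrhosis by 1.27 ± 0.20 (adjusted p = 0.00117) and than in hepatitis by 1.59 ± 0.20 (adjusted p = 0.000436). In cirrhosis all 3 arrays were above the controls, at a difference of 0.58 ± 0.20 that was not called (adjusted p = 0.16), and in hepatitis it was 0.26 ± 0.20. The cirrhosis difference was called with only the arrays of cirrhosis and control (0.0201) and with array weights (0.0133). Of the 6 stellate cell and myofibroblast markers 3 were called higher and 1 lower in HCC than in control, and 0 in hepatitis or cirrhosis. In HCC the 6 T and NK cell markers had 3 higher and 0 lower, and the 6 macrophage markers 1 and 3. The 5 endothelial markers had 0 and 3, where 19.1% and 18.3% of all genes were called higher and lower. The part of any cell type in the Klf6 result was not tested.

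Myc had 267, 208 and 336 in control, 133, 99.5 and 128 in hepatitis, 209, 279 and 176 in cirrhosis and 1090.5, 592 and 609 in HCC. The order of the groups was hepatitis, cirrhosis, control and HCC, with hepatitis arrays below all controls and HCC arrays above all other arrays. Myc rose in HCC by 1.41 ± 0.26 against control, 1.68 ± 0.26 against cirrhosis and 2.47 ± 0.26 against hepatitis, which is 5.53-fold (limma adjusted p = 0.00317, 0.00109 and 0.000186). Hepatitis, cirrhosis and control did not differ from each other beyond the threshold. Hepatitis against control was -1.06 ± 0.26 (adjusted p = 0.0661), cirrhosis against hepatitis 0.79 ± 0.26 (0.273) and cirrhosis against control -0.27 ± 0.26 (0.73). The hepatitis difference was called with 1 in place of 16 added before log2 (0.0415), with the dimmest 30% of probe sets left out (0.0413), with only the arrays compared (0.0473), with array weights (0.019) and without HCC replicate 1 (0.0197). All calls of Klf6 and Myc in HCC, against any of the 3 other groups, held with any 1 array left out.

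Ier2, a short nuclear protein, had 209, 209.6 and 158 in control, 90.2, 116 and 119.6 in hepatitis, 116, 136 and 100.2 in cirrhosis and 205, 197 and 209 in HCC. Hepatitis and cirrhosis formed 1 low level and control and HCC 1 high level, with no overlap between them. Ier2 fell by 0.74 ± 0.13 in hepatitis and fell by 0.64 ± 0.13 in cirrhosis (limma adjusted p = 0.0207 and 0.0342). In HCC it was higher than in cirrhosis by 0.73 ± 0.13 and than in hepatitis by 0.83 ± 0.13 (adjusted p = 0.00273 and 0.00164), and its difference from control was 0.09 ± 0.13 (adjusted p = 0.686). The hepatitis call ended without control replicate 1 or 2 or hepatitis replicate 1 (0.0748 to 0.0939), and with only the arrays of hepatitis and control (0.0556). The cirrhosis call ended without control replicate 1 or 2 or any 1 cirrhosis array (0.0613 to 0.133), and with the replicate number as a block (0.0559).

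Dusp1, a nuclear phosphatase that switches off MAP kinases, read 1643, 1928 and 658 in control, 512, 633 and 773 in hepatitis, 705, 845 and 589 in cirrhosis and 156, 411 and 107 in HCC. Control replicate 3 lay within the range of hepatitis and cirrhosis, and all HCC arrays lay under the other 9. The HCC difference from control was -2.64 ± 0.49, a fall to 0.161 of the control level (limma adjusted p = 0.00316), and this call held with any 1 array left out. Its difference was -1.79 ± 0.49 against cirrhosis and -1.63 ± 0.49 against hepatitis, both called (limma adjusted p = 0.0186 and 0.0308). The call against cirrhosis ended without cirrhosis replicate 1 or 2 or HCC replicate 1 or 3 (0.0509 to 0.0646), and that against hepatitis without any 1 hepatitis array or HCC replicate 1 or 3 (0.0509 to 0.104). Both ended with only the arrays of the groups compared (0.0504 and 0.0886), and that against hepatitis with array weights (0.0866). Hepatitis and cirrhosis differed from control by -1.002 ± 0.49 and -0.84 ± 0.49, neither called (adjusted p = 0.368 and 0.463).

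Zfp36, or tristetraprolin, binds AU-rich elements of cytokine transcripts and hastens their decay. It had 623, 671 and 325 in control, 101, 147 and 209 in hepatitis, 129.8, 208 and 139 in cirrhosis and 149, 384 and 203 in HCC. Hepatitis and cirrhosis arrays lay below all controls, and HCC replicate 2 reached the control range. The fall in hepatitis was -1.71 ± 0.39, to 0.307 of control, and was called at the edge of the threshold (limma adjusted p = 0.0494). The cirrhosis difference of -1.63 ± 0.39 and the HCC difference of -1.12 ± 0.39 were just outside it (adjusted p = 0.0522 and 0.0535). Leaving out 1 array moved these calls both ways. The hepatitis call ended without control replicate 1 or 2, hepatitis replicate 1 or 2, any 1 cirrhosis array or HCC replicate 3 (0.0543 to 0.19). The cirrhosis difference was called without control replicate 3, hepatitis replicate 3, or HCC replicate 1 or 2 (0.0273 to 0.0467), and the HCC difference was called without control replicate 3 or HCC replicate 2 (0.0274 and 0.0122). Other settings moved them as well. The hepatitis call ended with 64 in place of 16 added before log2 (0.0591), quantile normalization (0.0647) and only the arrays compared (0.0639). The cirrhosis difference was called with 1 added (0.0343), with the dimmest 30% of probe sets left out (0.0324), with only the arrays compared (0.0171) and with array weights (0.00436). The HCC difference was called with 1 added (0.0398), the dim probe sets left out (0.0329), 1 probe set per gene (0.0418) and the replicate number as a block (0.0417).

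Promoter windows of the genes that carry these changes are shown so that the elements known to drive the class can be seen in the rat sequence. RefSeq windows of the GRCr8 assembly, from 250 bases before to 50 bases after the gene start, matched 6 of the 10 members: Fosb, Zfp36, Dusp1, Klf6, Egr1 and Ier2. Fos, Jun, Atf3 and Myc were not matched. Both strands were searched for the cAMP response element TGACGTCA, the AP-1 site TGANTCA, the E-box CACGTG, the Egr1 site GCGTGGGCG and the CArG box of serum response factor, and no match overlapped another. Capitals mark every match in the windows of Dusp1 (chr10:17184603-17184902, plus strand), Ier2 (chr19:40399123-40399422, plus strand), Zfp36 (chr1:92799059-92799358, minus strand) and Klf6 (chr17:69458429-69458728, minus strand).

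Dusp1: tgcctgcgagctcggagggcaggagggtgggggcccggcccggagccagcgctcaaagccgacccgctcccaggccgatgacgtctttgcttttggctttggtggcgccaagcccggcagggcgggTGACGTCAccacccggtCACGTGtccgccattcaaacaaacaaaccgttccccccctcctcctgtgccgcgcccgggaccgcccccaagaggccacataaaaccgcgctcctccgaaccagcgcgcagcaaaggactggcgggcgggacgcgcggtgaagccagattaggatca
Ier2: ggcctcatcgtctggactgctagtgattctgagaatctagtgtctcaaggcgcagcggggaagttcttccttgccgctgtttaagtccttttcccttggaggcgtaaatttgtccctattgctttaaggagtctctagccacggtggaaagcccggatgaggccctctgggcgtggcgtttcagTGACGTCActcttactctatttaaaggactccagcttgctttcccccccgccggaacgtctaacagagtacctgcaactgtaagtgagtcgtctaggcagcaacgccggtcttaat
Zfp36: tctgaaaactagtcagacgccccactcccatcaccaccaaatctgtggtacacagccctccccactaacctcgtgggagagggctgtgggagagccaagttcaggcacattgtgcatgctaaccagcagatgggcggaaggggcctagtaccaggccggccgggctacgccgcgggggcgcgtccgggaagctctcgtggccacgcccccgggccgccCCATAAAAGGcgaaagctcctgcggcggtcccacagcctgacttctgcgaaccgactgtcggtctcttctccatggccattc
Klf6: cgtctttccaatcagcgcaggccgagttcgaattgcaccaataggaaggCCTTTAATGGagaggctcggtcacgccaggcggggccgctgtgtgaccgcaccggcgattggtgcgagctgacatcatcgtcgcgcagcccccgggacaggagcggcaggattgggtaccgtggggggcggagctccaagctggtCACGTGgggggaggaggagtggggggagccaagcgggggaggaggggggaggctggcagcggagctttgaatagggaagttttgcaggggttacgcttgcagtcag

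Dusp1, lower in HCC, and Ier2, lower in hepatitis and cirrhosis, each held 1 cAMP response element, which starts at -124 and -66 from the gene start. That motif was in 1.83% of all 33469 windows. An E-box, the site of Myc and related factors, began at -107 in Dusp1 and at -56 in Klf6, against 6.42% of windows. The CArG box, in 1.64% of windows, was found at -32 in Zfp36 and at -201 in Klf6, and the Egr1 window, not printed, held 2 of them, at -105 and -83. No AP-1 site or Egr1 site was in the 6 windows, of which that of Fosb does not lie at the listed start of its gene, against 7.33% and 0.544% of all windows. These are matches of letters in a short window, and binding was not measured.

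Genes with several probe sets were compared probe set by probe set. The 3 of Klf6 all rose in HCC against control, by 1.85 ± 0.20, 1.17 ± 0.15 and 1.71 ± 0.28 (log2; limma adjusted p = 0.000218, 0.000532 and 0.00181). Against hepatitis the same probe sets differed in HCC by 1.59 ± 0.20, 0.62 ± 0.15 and 0.82 ± 0.28, the first and second called and the third not (adjusted p = 0.000436, 0.0128 and 0.0547). The 2 dimmer ones stood above the controls on all hepatitis arrays as well, at 0.55 ± 0.15 and 0.89 ± 0.28, not called (adjusted p = 0.096 and 0.145). The second probe set of Dusp1, at intensities of 6.88 to 35.0, was also lower in HCC, at -0.62 ± 0.17 against control and -0.72 ± 0.17 against cirrhosis (adjusted p = 0.0217 and 0.0104), and at -0.42 ± 0.17 against hepatitis was not called (0.102). The 3 Jun probe sets passed no test in any comparison, and in HCC against control 2 had a difference below 0 (-0.14 and -0.38) and 1 above (0.26). The second Fos probe set read 8.37 to 12.1 on all arrays, at the dim end, and differed between groups by 0.06 or less (log2).

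**Figure D2:**
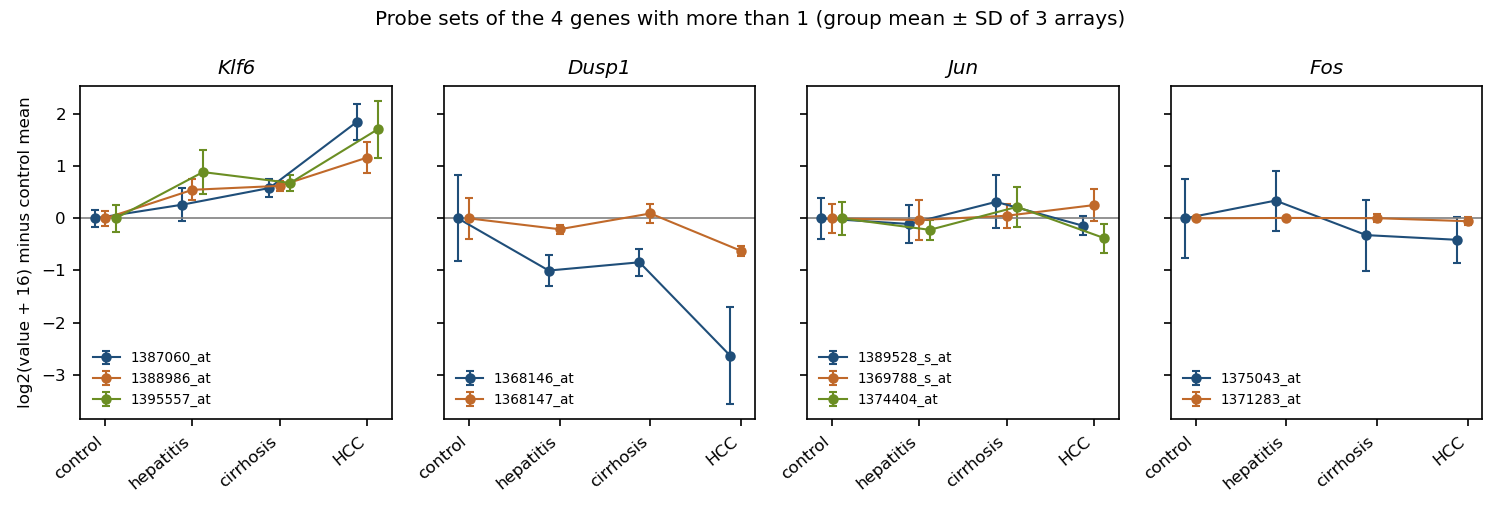
Group means ± SD of 3 arrays for every probe set of Klf6, Dusp1, Jun and Fos, as log2(intensity + 16) minus the control mean of that probe set (vertical axis), over the 4 groups (horizontal axis). The 3 Klf6 probe sets reach 1.17 to 1.85 in HCC, the 2 Dusp1 probe sets fall there to -2.64 and -0.62, and those of Jun and Fos stay near 0 relative to their spread.

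At the hepatitis stage 0 of the 10 genes were higher and 3 lower than control, where 1.72% and 2% of all genes were called. The median difference of the 10 was -0.57, against -0.0025 over all genes. At cirrhosis 0 were higher and 2 lower, against 1.65% and 1.99%, and the median was -0.30. With 1 array left out the count ran from 0 to 4 at both stages. It was 0 in hepatitis without control replicate 1 or 2, and 1 without hepatitis replicate 1. In cirrhosis it was 0 without control replicate 1 or 2 or any 1 cirrhosis array, and 4 without HCC replicate 2. Calls over all probe sets moved in the same runs. In hepatitis they numbered 916, and 317, 297 and 347 without control replicate 1, control replicate 2 and hepatitis replicate 1. In cirrhosis they numbered 1125, and 257 and 286 without control replicates 1 and 2. Without cirrhosis replicates 1, 2 and 3 they were 233, 194 and 240, and 1629 without HCC replicate 2. None of the 10 was called between cirrhosis and hepatitis, where 0.83% of all genes were. At an unadjusted p under 0.05 that comparison had 1 of the 10, against 12.0% of all genes.

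In HCC 3 genes were higher and 2 lower than control, shares near those of all genes, 19.1% and 18.3%. Against cirrhosis 5 were higher and 1 lower, with 19.3% and 17.6% over all genes. Against hepatitis 4 were higher and 1 lower, with 17.5% and 16.8% over all genes. The median differences of the 10 were -0.18, 0.62 and 0.66, against 0.0074, 0.0023 and 0.0132 over all genes. The 3 comparisons with control share the same 3 control arrays, and the 3 comparisons with HCC share the HCC arrays. The count against control ranged from 5 to 7 with 1 array left out.

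**Figure D3:**
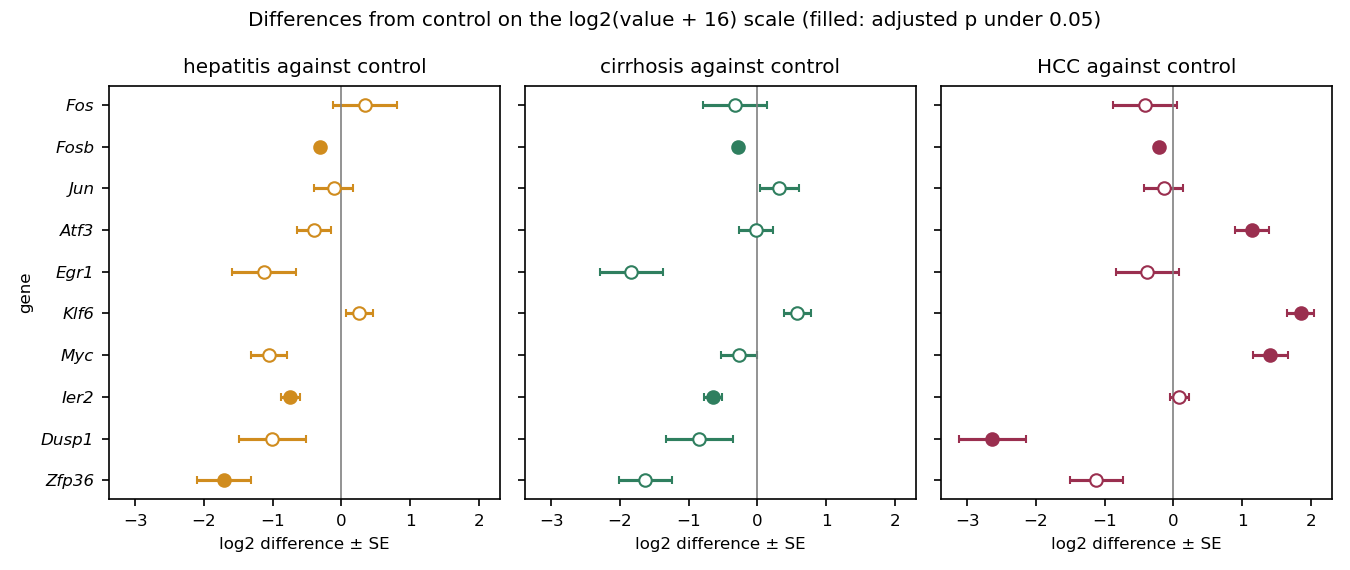
Difference from control of each gene at hepatitis, cirrhosis and HCC on the log2(intensity + 16) scale (horizontal axis) with its SE, where filled points have an adjusted p under 0.05. Points of Egr1, Myc, Dusp1 and Zfp36 lie between -1.71 and -1.002 in hepatitis with only that of Zfp36 filled, and in HCC Klf6, Myc and Atf3 are filled on the right and Dusp1 and Fosb on the left.

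The order of the arrays within a group was compared between these genes. With 10 genes and 3 arrays some array is always the brightest for several, so the counts are read beside the shares of all genes. Cirrhosis replicate 2 was the brightest of its group for all 10 genes, while it was the brightest for 36.2% of all genes. Control replicate 2 was the brightest control for 7 of them (Dusp1, Egr1, Fos, Fosb, Ier2, Jun and Zfp36), against 31.7% of all genes, and control replicate 3 the dimmest for 6 (Dusp1, Fos, Fosb, Ier2, Jun and Zfp36), against 41.4%. Dusp1, Egr1, Fosb, Jun and Zfp36 were brightest in HCC on replicate 2, at deviations from the group mean of 1.03, 1.31, 0.09, 0.20 and 0.72 (log2). Ier2, Klf6 and Myc were dimmest on that array, the latter at -0.36 and -0.30. That array was the brightest of its group for 34% of all genes and the dimmest for 34.2%. In hepatitis 5 genes each were brightest on replicates 1 and 3 and none on replicate 2, against 34.9%, 35.1% and 30.0% of all genes.

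The arrays named here also differed in marker sums. Control replicate 2 held the muscle signal given above, and control replicate 3 had the highest macrophage sum of the controls, at 6080. HCC replicate 2 had the highest hepatocyte and endothelial sums of its group, 48915 and 1087, and the lowest macrophage sum, 2985. Cirrhosis replicate 2 had a neutrophil marker sum of 884, over 3 markers, against 409 and 327 on the other cirrhosis arrays. HCC replicate 1, the brightest array for Klf6 and Myc, had the highest cholangiocyte sum of all arrays, 5534, and the highest stellate and T and NK cell sums of its group, 2740.5 and 485. The part of these differences in the order of the arrays was not tested.

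**Figure D4:**
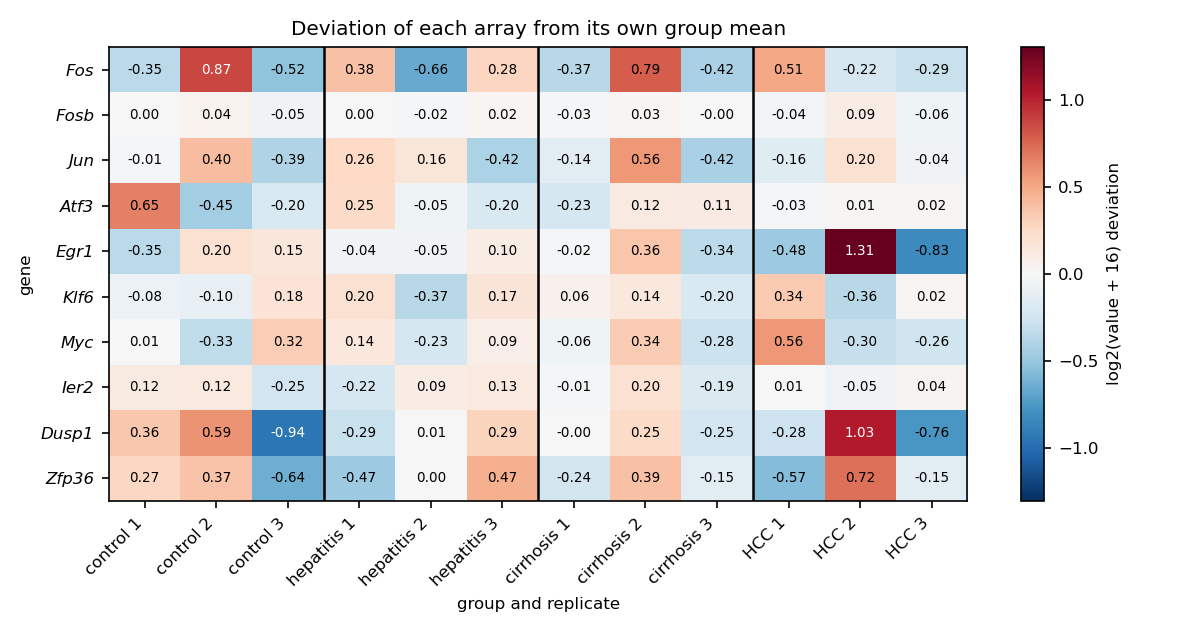
Deviation of each array from the mean of its own group in log2(intensity + 16) (colour and printed value) for the 10 genes (rows) on the 12 arrays (columns, 3 per group). The column of cirrhosis replicate 2 is above 0 for every gene, and on HCC replicate 2 Egr1 and Dusp1 deviate by 1.31 and 1.03 while Klf6 and Myc deviate by -0.36 and -0.30.

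Other genes of the pathway were read from lists, in the same fit. Among 14 measured genes listed as AP-1 partners 1 was higher and 2 lower in hepatitis, 1 and 2 in cirrhosis, and 3 and 1 in HCC, each against control. The list also holds Nab1 and Nab2, which bind Egr proteins and were not called against control at any stage. Over all genes 1.72% were higher and 2% lower in hepatitis, 1.65% and 1.99% in cirrhosis and 19.1% and 18.3% in HCC, and the counts of this and the next lists are read against these shares. In HCC the share of AP-1 partners called higher lay near that background and the share called lower under it. The list medians were -0.04, 0.04 and 0.02. Jund, a Jun protein with constitutive expression, rose at each stage, from 688 ± 10.4 in control to 962 ± 110 in hepatitis, 1067 ± 47.1 in cirrhosis and 1659 ± 19.9 in HCC (intensity, SD, n = 3; log2 differences 0.47, 0.62 and 1.25; limma adjusted p = 0.0103, 0.00441 and 1.77e-05). These calls held with any 1 array left out. In HCC the small Maf protein gene Maff rose by 1.25 and the Fos relative Fosl2 by 0.55, with adjusted p = 0.00508 and 0.000766, and the call of Maff ended with only the arrays of HCC and control (0.0533). Mafg, another small Maf, fell by 0.57 in hepatitis and fell by 0.40 in cirrhosis (adjusted p = 0.00247 and 0.014), and Atf4, of the amino acid response, fell by 0.76 in hepatitis (0.0143). The cirrhosis call of Mafg ended without control replicate 1 or 2 or any 1 cirrhosis array (0.055 to 0.0634), and the call of Atf4 without control replicate 2 or hepatitis replicate 1 (0.0573 and 0.0597). Junb fell by 0.84 in cirrhosis (adjusted p = 0.0292), from 164 ± 10.2 to 85.8 ± 17.4, and this call ended without any 1 of the control or cirrhosis arrays (0.0579 to 0.106) and with the replicate block (0.0631).

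Of 40 other immediate early genes measured, 3 were higher and 2 lower in hepatitis, 0 and 2 in cirrhosis and 8 and 6 in HCC, with medians of 0.05, 0.02 and -0.03. In HCC these shares were near those of all genes, 19.1% and 18.3%. The polo-like kinase gene Plk2, which is also a p53 target, rose by 1.69 in hepatitis (193 ± 25.5 to 661 ± 115; limma adjusted p = 0.00584), and Ier5 rose by 1.39 in hepatitis and 1.09 in HCC (0.00927 and 0.00369). Ppp1r15a, which restores translation after stress, fell by 1.19 in hepatitis and fell by 1.12 in cirrhosis (0.0194 and 0.0256). The hepatitis call of Ppp1r15a ended without control replicate 2 or hepatitis replicate 1 or 2 (0.0511 to 0.0806) and with only the arrays compared (0.07). Its cirrhosis call ended without control replicate 1 or 2 or any 1 cirrhosis array (0.0648 to 0.0979) and with the replicate block (0.0571). Csrnp1 fell by 0.76 in cirrhosis (0.00916). It was also called lower in hepatitis and HCC, by 0.74 and 0.61 (0.0083 and 0.00261), outside the 3 largest differences of those stages. In HCC Klf10, a TGF beta-induced factor, fell by 0.95 and the EGF receptor inhibitor Errfi1 fell by 1.15 (0.0017 and 0.0242), the latter not called without any 1 control array or HCC replicate 1 or 3 (0.0518 to 0.0766) or with only the arrays compared (0.0827).

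None of 18 measured upstream kinases and factors was called in hepatitis or cirrhosis, where the smallest adjusted p belonged to Elk3 (0.152) and Map3k1 (0.0574). At an unadjusted p under 0.05 there were 3 and 8. Over all genes 18.1% and 17.1% passed that unadjusted threshold in hepatitis and cirrhosis. In HCC 4 were higher and 4 lower, where 19.1% and 18.3% of all genes were. The stress kinase gene Mapk9 fell by 1.11 and the CREB family gene Crem fell by 0.98, while Rps6ka3, a kinase downstream of ERK, rose by 1.00 (limma adjusted p = 0.000221, 0.0104 and 0.00406). Of 21 genes of the Myc network 1 was higher and 1 lower in hepatitis, 0 and 1 in cirrhosis, and 7 and 2 in HCC, where 19.1% and 18.3% of all genes were called higher and lower. The list median in HCC was 0.29. Nop56, a nucleolar protein and Myc target, rose by 2.35 in HCC, from 380 ± 56.0 to 2097 ± 877 (adjusted p = 0.00019), and Tfrc rose by 0.93 (0.0144). Lactate dehydrogenase A (Ldha), also a Myc target, fell by 1.33 (0.0121). With only the arrays of HCC and control the calls of Tfrc and Ldha ended (0.0885 and 0.0872). Shmt2, the mitochondrial serine enzyme, fell by 0.95 in hepatitis and fell by 0.66 in cirrhosis (0.00711 and 0.032), the second not called without any 1 control or cirrhosis array (0.0602 to 0.119) or with quantile normalization (0.0918). Mycbp rose by 0.48 in hepatitis (0.0249), a call that ended without control replicate 1 or 2 or hepatitis replicate 1 or 2 (0.0546 to 0.104) and with only the arrays compared (0.0761).

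Of 18 AP-1 and Egr1 targets 0 were called in hepatitis and in cirrhosis, and 4 were higher and 0 lower in HCC, with medians of 0.28, 0.10 and 0.63. The 4 of 18 lay near the 19.1% of all genes that were higher in HCC. At an unadjusted p under 0.05 there were 4 in hepatitis and 2 in cirrhosis, against 18.1% and 17.1% of all genes. The growth factor gene Pdgfa rose in HCC by 1.38, vimentin (Vim) by 1.29 and the hyaluronan receptor gene Cd44 by 1.17 (limma adjusted p = 0.00513, 0.0191 and 0.00978), and the Vim call ended without control replicate 1 or 2 or HCC replicate 1 or 3 (0.0546 to 0.0747) and with array weights (0.0549). With only the arrays of HCC and control the calls of Vim and Cd44 ended (0.091 and 0.0659). Ccnd1 in hepatitis had a difference of 0.84 (0.112) and the metallothionein gene Mt2A in cirrhosis -1.92 (0.0951). Of 11 cytokine transcripts that Zfp36 is known to bind, none was called in hepatitis or cirrhosis. The smallest limma adjusted p-values were 0.16 for Il1b in hepatitis, at a difference of 0.78, and 0.358 for Vegfa in cirrhosis, at -0.39. At an unadjusted p under 0.05 there were 1 and 0, against 18.1% and 17.1% of all genes. Cxcl2 rose by 0.55 in HCC (0.00467), from 6.88 ± 0.49 to 17.8 ± 5.92, at the dim end of the arrays.

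Leaving out 1 array changed most of these list counts, and also the count of calls over all probe sets. In hepatitis the count of other immediate early genes fell from 5 to 3 without control replicate 2, and the Myc network from 2 to 1 without control replicate 1 or 2 or hepatitis replicate 1 or 2. In cirrhosis the AP-1 partners had 1 called gene in place of 3 without control replicate 1 or 2 or any 1 cirrhosis array, and the Myc network had 0 in place of 1 without any 1 control or cirrhosis array. Other immediate early genes in cirrhosis had 1 in place of 2 without control replicate 1 or 2 or any 1 cirrhosis array, 6 with HCC replicate 1 left out and 5 with HCC replicate 2 left out. In HCC the AP-1 partners had 7 in place of 4 without HCC replicate 2, the Myc network 5 in place of 9 without control replicate 2, other immediate early genes 9 in place of 14 without control replicate 1 or 3, and the targets 2 in place of 4 without control replicate 1 or 2. The cytokine transcripts had 2 called in HCC without control replicate 3 or hepatitis replicate 2 and 3 without HCC replicate 3. The cytokine transcripts had 0 called in hepatitis and cirrhosis with any array left out, while the counts of 0 among targets and upstream genes changed. In cirrhosis 3 targets were called with HCC replicate 1 left out and 2 with HCC replicate 2, and 3 upstream genes with HCC replicate 1 left out, 2 with HCC replicate 3, and 1 with HCC replicate 2 or hepatitis replicate 3. In hepatitis leaving out HCC replicate 1 gave 2 called targets, and HCC replicate 2 or 3 gave 1, and 1 upstream gene without HCC replicate 1 or 3.

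**Figure D5:**
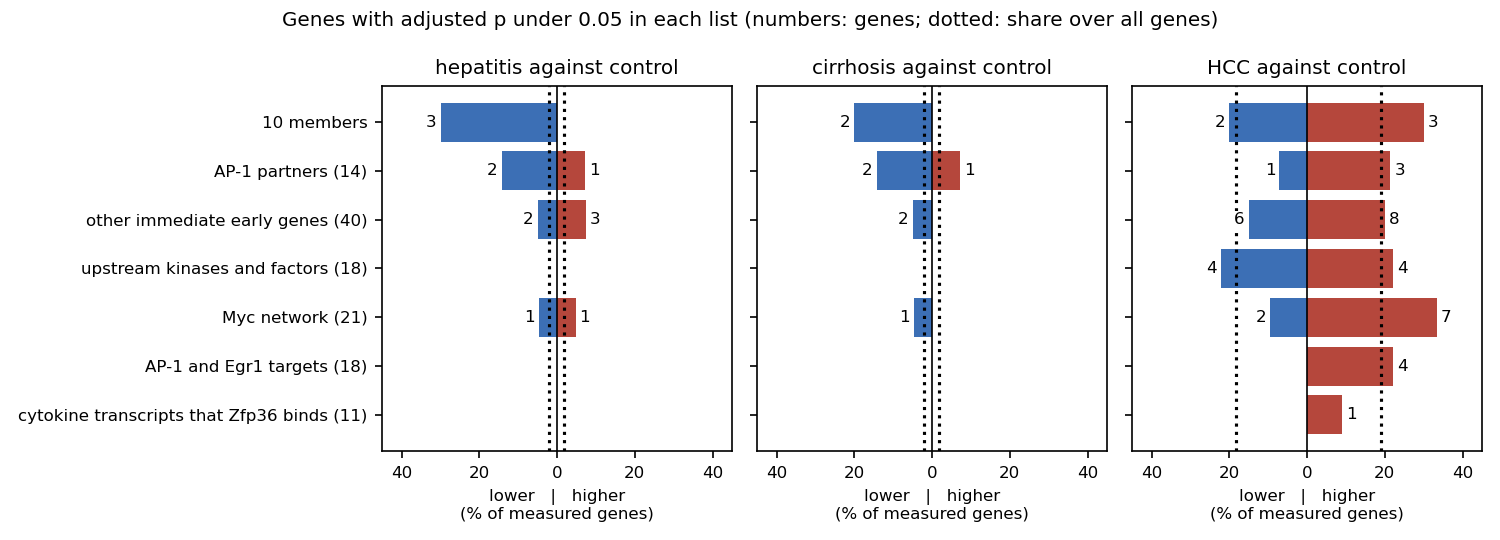
Share of the measured genes of each list that were called lower (left, blue) or higher (right, red) than control at each stage, in percent, with the number of genes beside each bar and the share over all genes as dotted lines. In hepatitis and cirrhosis the bars of the 10 genes lie on the left only, with 3 and 2 genes, and in HCC the Myc network has the longest bar on the right, with 7 of 21 genes.

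The genes with the profiles nearest to each member were found by the root mean square difference over the 12 arrays between log2 profiles, each centred on its own mean. Dusp1, whose own profile had a root mean square of 1.09, was nearest to Pank1 (0.35), G0s2 (0.38) and Slc22a7 (0.40). Zfp36 (0.80) was nearest to Cars1 (0.35), Lcmt1 (0.36) and Atf5 (0.37), and Egr1 (0.87) to Per3 (0.46), Epb41 (0.50) and R3hdm2 (0.50). For Klf6 (0.74) the nearest were Anxa7 (0.21), Capn2 (0.22) and Rfx5 (0.23), for Myc (0.94) Abcc4 (0.37), Fabp5 (0.40) and Myh14 (0.40), and for Atf3 (0.63) Trio, Kmt5a (each 0.26) and Rab3d (0.27). Ier2 (0.40) was nearest to Mta1 (0.11), Atp13a1 (0.13) and Shmt2 (0.14), and the dim Fosb (0.13) to Inpp4b (0.04), Cd52 and Coq6 (each 0.06). No member was among the 3 nearest of another, but the 3 were taken from all 20826 probe sets with 1 gene symbol. The other Klf6 probe sets were not among the 3 nearest of Klf6 either. The lists of 3 therefore cannot show whether members moved together. Between members the difference was 0.33 for Fosb and Ier2 and 0.37 for Fosb and Jun, pairs in which Fosb has a small range of its own. It was 0.45 for Atf3 and Klf6, 0.50 for Atf3 and Myc, 0.51 for Klf6 and Myc and 0.59 for Egr1 and Zfp36, while Dusp1 was no closer than 0.96 to any.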

How the data were processed

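The 12 samples were hybridised singly to Affymetrix Rat 230 2.0 arrays, 3 for each of 4 groups taken from the labels. The deposited values are 1 linear intensity per probe set and array. Per the submitters' processing notes MAS5 and RMA were used, with no versions named, and the sources used here do not say which of them made these values. Of 31099 probe sets, 57 array controls were left out of tests, 20826 of the rest have 1 gene symbol, 436 several and 9780 none. Members were matched by symbol.

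A group means model was fitted to log2(intensity + 16) of 31042 probe sets with limma 3.58.1 (lmFit, eBayes) in R 4.3.3, with Benjamini-Hochberg adjustment over all of them. All tests are two-sided. Background shares count each of 14217 genes by its brightest probe set. The fit was tested on simulated data. The members and lists were chosen with earlier results of these data known. Named list genes are the 3 called genes with the largest difference from control per list and stage, or the one with the smallest adjusted p where none was called. Likeness was computed for the members called in the F test. The alternatives were another added value, a filter on dim probe sets, quantile normalization, fewer arrays, 1 probe set per gene, array weights, a replicate block and leaving out each array. The number of arrays limits the precision.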

Additional observations from a re-analysis of the deposited data

Results flagged for a closer look

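For 6 of the genes the effect against the common controls differed between stages, by a test of the difference itself in limma with adjustment over all probe sets (log2 ± SE, 3 arrays per group). All these differences were between HCC and an earlier stage. Over all genes 19.3% were called higher and 17.6% lower in HCC than in cirrhosis, and 17.5% and 16.8% than in hepatitis. Myc in HCC exceeded cirrhosis by 1.68 ± 0.26 and hepatitis by 2.47 ± 0.26, and Klf6 by 1.27 ± 0.20 and 1.59 ± 0.20. The other 2 Klf6 probe sets exceeded hepatitis by 0.62 ± 0.15 and 0.82 ± 0.28, the second not called (adjusted p = 0.0547). Atf3 in HCC exceeded cirrhosis by 1.16 ± 0.25 and hepatitis by 1.53 ± 0.25, and Ier2 by 0.73 ± 0.13 and 0.83 ± 0.13. Dusp1 differed in HCC by -1.79 ± 0.49 from cirrhosis and by -1.63 ± 0.49 from hepatitis. Both calls of Dusp1 ended with single arrays left out. Egr1 in HCC exceeded cirrhosis by 1.45 ± 0.46. The Egr1 difference was 0.80 without HCC replicate 2, and its call ended with 8 of the 12 arrays left out singly. In each of these 11 comparisons the 3 HCC arrays lay on 1 side of the 3 arrays of the other group. The comparisons were picked by the test on the same arrays, so this adds no support. The share of all genes with arrays so separated was not computed.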

How the results depend on the processing

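Of 21 called comparisons of the 10 genes, 13 held with any 1 array left out. Elsewhere the cause was not tested. Genes called in hepatitis numbered 3, 5 with array weights and 0 to 4 with 1 array left out. In cirrhosis they numbered 2, 4 with 1 in place of 16 added before log2, 5 with only the arrays of the groups compared, 5 with array weights, 1 with the replicate block and 0 to 4 with 1 array left out. In HCC against control they numbered 5, 3 with only the arrays of the groups compared and 5 to 7 with 1 array left out. With 1 array left out the ranges were 4 to 6 for HCC against cirrhosis, 4 to 5 for HCC against hepatitis, 6 to 8 for any stage and 0 to 0 for cirrhosis against hepatitis.

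Differences changed sign only where none was called. The difference of Atf3 between cirrhosis and control was 0.0062 with quantile normalization, 0.0425 with array weights and -0.25 to 0.30 with 1 array left out, and that of Jun between HCC and hepatitis was 0.0570 with quantile normalization and -0.25 to 0.0922 with 1 array left out. With 1 array left out Egr1 in HCC against control ran from -1.03 to 0.0349, Ier2 from -0.0363 to 0.15, Jun from -0.34 to 0.0570 and Fos from -0.67 to 0.0254. Fos ran from -0.72 to 0.12 in cirrhosis against control and from -0.34 to 0.30 in HCC against cirrhosis. Jun in hepatitis against control ran from -0.30 to 0.10, and cirrhosis against hepatitis from -0.0143 to 0.19 for Ier2 and from -0.16 to 0.31 for Zfp36.

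Over all probe sets, cirrhosis against control had 1125 calls, 4949 with only the arrays compared, 4946 with array weights and 717 with the block. Hepatitis had 916 and 3468 with array weights. HCC against control, cirrhosis and hepatitis had 9237, 10008 and 8990, and 4994, 6499 and 3793 with only the arrays compared. Cirrhosis against hepatitis had 202, and 466, 1181 and 133 under those 3 settings. With 1 array left out cirrhosis against control ran from 194 to 1884 calls and hepatitis against control from 297 to 1652. With 1 probe set per gene, where fewer are tested, the counts were 568 in hepatitis, 474 in cirrhosis, 5512 in HCC, 136 in cirrhosis against hepatitis, 5278 and 4972 in HCC against cirrhosis and hepatitis, and 5746 for any stage, which had 10303. The labels state no pairing of samples by replicate number. Deviations of same-numbered arrays correlated at -0.225 to 0.34 over 18 pairs, and those of other pairs at -0.307 to 0.188. These ranges overlap and cannot decide whether same-numbered samples are paired. The replicate block called 3 genes in hepatitis, 6 in HCC against control and against cirrhosis, 5 against hepatitis and 8 at any stage. Fosb dropped out when the dimmest 30% of probe sets were left out, and the F test was not run on fewer groups.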
